A study of Mus musculus with 9 samples.

Results

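The SR splicing factors examined here were 10 genes, Srsf1, Srsf2, Srsf3, Srsf4, Srsf5, Srsf6, Srsf7, Srsf9, Srsf10 and Srsf11. They were followed on exon arrays of C2C12 cells, an established mouse myoblast line, after knockdown of either of a pair of other splicing regulators. Members were the probe sets whose platform annotation gave exactly 1 symbol and that symbol was the gene's own name or an older one. 9 of the 10 genes were annotated under an older Sfrs name, and Srsf10 was reached through its RefSeq synonym Fusip1. This gave 211 probe sets of 316997 with 1 symbol. Of these, 166 had a mean log2 intensity over all 9 arrays at or above the 75th percentile of all probe sets, 7.00, and only these were used. The 3 kept members nearest that limit had means of 7.02, 7.10 and 7.19, and the 3 nearest below it had 6.99, 6.89 and 6.75. The 45 probe sets left out belonged to every gene but Srsf9, with 14 in Srsf10 and 10 in Srsf5.

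The cells, kept in medium with fetal bovine serum, were transfected with siRNA against Cugbp1 (now Celf1), against Mbnl1, or with a control siRNA, and their total RNA was taken after 48 h. There were 3 arrays in each of the 3 groups, and all groups were the same line and carried a transfected siRNA. A knockdown leaves part of the target's RNA, and how many different siRNAs were used for each target is not given in the sources used here. Nothing in the labels says that replicates came from separate cultures, so the p-values speak only of array-to-array spread, part or all of which could be technical.

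SR proteins bind RNA through an RNA recognition motif and carry a tail rich in arginine and serine. On exons they recruit the U1 and U2 particles to nearby splice sites, and several of them also accompany the spliced mRNA out of the nucleus. Most of their genes hold a conserved poison exon, which carries a premature stop codon. Its inclusion sends the transcript to nonsense-mediated decay, and many SR proteins raise the inclusion of the poison exon of their own gene. Celf1 and Mbnl1 are RNA-binding regulators of alternative splicing in muscle, and both are disturbed in myotonic dystrophy.

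The targeted genes were lower in their own group. Celf1 was at 10.11, 10.14 and 10.14 (log2 intensity) on the control arrays and at 8.60, 8.60 and 8.81 after Cugbp1 siRNA, a log2 change of -1.46 ± 0.06 (SE, n = 3 and 3; adjusted p = 9.01e-07, limma with Benjamini-Hochberg adjustment). Mbnl1 was at 11.47, 11.46 and 11.44 on the control arrays and at 10.05, 10.10 and 10.18 after Mbnl1 siRNA, a log2 change of -1.35 ± 0.05 (adjusted p = 3.97e-07, limma). The median intensity of an array was 43.6 to 43.8 in the controls and 42.3 to 42.9 in the 6 siRNA arrays, without overlap, which matters for small changes in a constant direction. All 10 genes listed as myoblast markers, Myod1 and Des among them, were bright enough to be tested. So were 10 of 16 listed markers of other cell types, so passing the filter does not tell the cell type.

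4 members were called higher after both siRNAs at an adjusted p under 0.05 (limma), as given below. Both comparisons use the same controls. The share of all genes called higher after both was not computed, so the count of 4 is not read as a result. The Srsf6 calls passed in only 5 and 7 of 19 alternative settings. Of the 4, Srsf5 and Srsf6 had at least 50 bases before the start outside every protein-coding gene, and these sequences are shown. Each run is read 5′ to 3′ on the strand of the gene from RefSeq (GRCm38.p6) and ends at or just before the start. The stretch for Srsf5 is chr12:80945299-80945494 (196 bases), and part of it lies in the long non-coding gene Gm20337. The stretch for Srsf6 is chr2:162931308-162931507 (200 bases) and overlaps no annotated gene. Capitals mark a GC box (GGGCGG) or the start of a cyclic AMP response element (TGACGT), on either strand.

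Srsf5: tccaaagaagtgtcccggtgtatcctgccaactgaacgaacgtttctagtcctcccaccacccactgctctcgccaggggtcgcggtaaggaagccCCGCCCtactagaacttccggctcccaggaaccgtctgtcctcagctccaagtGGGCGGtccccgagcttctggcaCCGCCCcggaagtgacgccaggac
Srsf6: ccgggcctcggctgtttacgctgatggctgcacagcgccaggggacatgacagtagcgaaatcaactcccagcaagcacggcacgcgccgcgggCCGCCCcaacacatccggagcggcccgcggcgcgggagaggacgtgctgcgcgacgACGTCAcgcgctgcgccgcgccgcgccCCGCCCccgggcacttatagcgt

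The stretch for Srsf5 held 3 GC boxes, and that for Srsf6 held 2 GC boxes and 1 TGACGT. The 200 bases before a start held a GC box in 9 of the 10 genes and in 31.05% of all 32851 RefSeq promoters. TGACGT stood in 3 of the 10 and in 5.85% of all, a CCAAT box (CCAAT) in 3 and 29.35%, a TATA box (TATAAA) in 2 and 9.96%, and an E box (CACGTG) in 0 and 5.26%. A member was counted if the bases before any of its starts held the motif, while each of the 32851 promoters was counted singly. Srsf4 had 3 starts and Srsf11 had 2, so the units differ. GC content was 58.5% to 81.5% in the 13 windows of the members and had a median of 53% over all promoters. These are descriptions of letters in a window, and a match is not evidence of binding.

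The gene value was a Tukey median polish of the kept probe sets on the log2 scale, and each change below is a difference of log2 values. After Cugbp1 siRNA 6 of the 10 genes rose, Srsf2, Srsf5, Srsf6, Srsf9, Srsf10 and Srsf11, and none fell at an adjusted p under 0.05 (limma, Benjamini-Hochberg over 12646 genes). Over all genes tested 26% rose in this comparison. After Mbnl1 siRNA 4 of the 10 rose, Srsf2, Srsf5, Srsf6 and Srsf10, and none fell, while 26.9% of all genes rose. Falling calls were 12.7% and 14.6% of all genes. At an unadjusted p under 0.05 there were 7 and 6 of the 10, against 49.3% and 50.9% of all genes. The median change of the 10 genes was 0.16 after Cugbp1 siRNA and 0.14 after Mbnl1 siRNA, beside 0.05 and 0.04 over all genes. Members had 7 (Srsf9) to 26 (Srsf11) kept probe sets, and the median over all genes was 10. The shares and medians of all genes were not matched for this number. Both comparisons use the same 3 control arrays, so their values stand side by side and are not independent. The changes were small, at most 18.1% in either comparison.

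**Figure D1:**
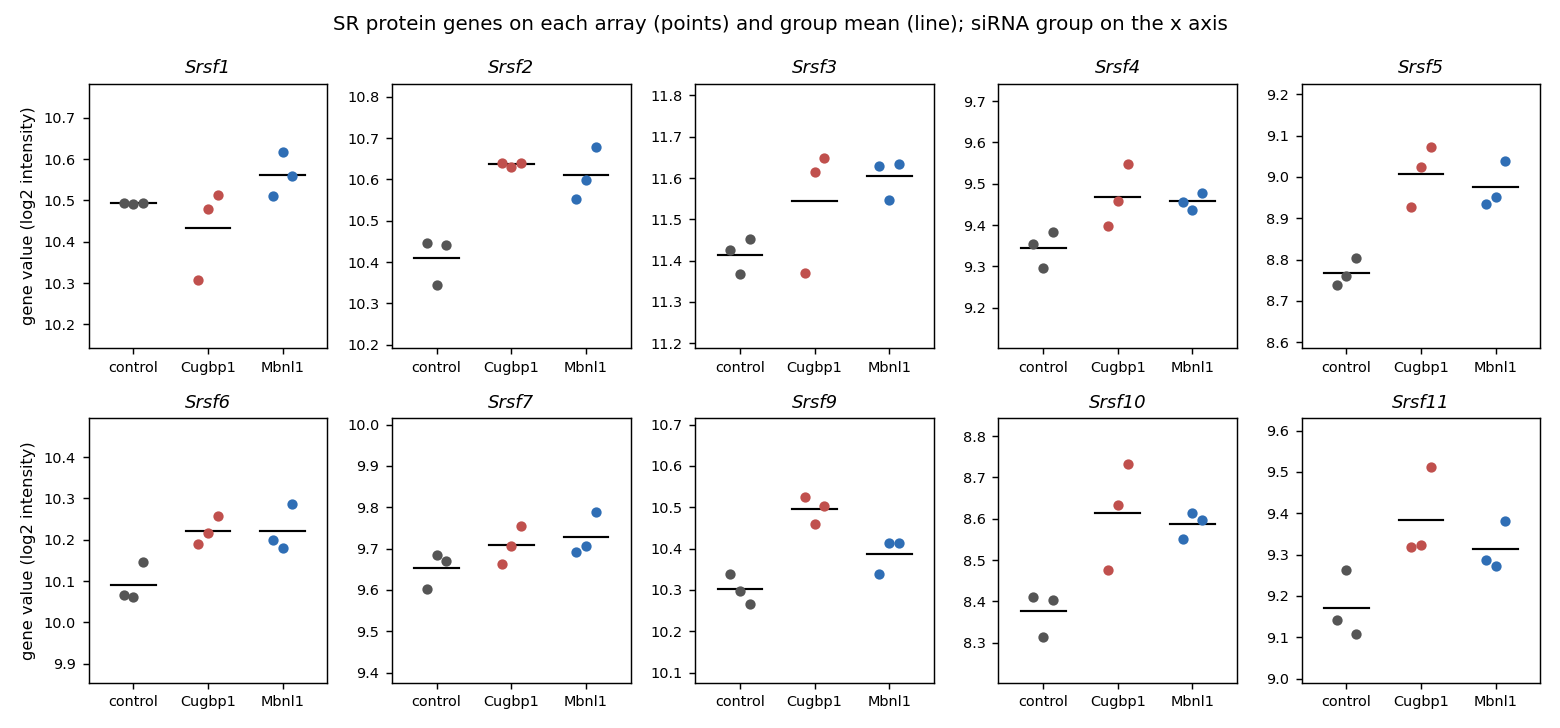
Gene value (log2 intensity, y axis) of each SR protein gene on the 3 arrays of each siRNA group (x axis); points are arrays, lines are group means, and every panel spans the same range. The Srsf5 and Srsf2 control arrays lie below all 6 siRNA arrays, while the Cugbp1 siRNA arrays of Srsf1 overlap its controls.

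Every Cugbp1 siRNA array lay above every control array for 7 genes, Srsf2, Srsf4, Srsf5, Srsf6, Srsf9, Srsf10 and Srsf11. The same held for 32.9% of all genes. Every Mbnl1 siRNA array lay above every control array for 9 genes, all but Srsf9, and for 37.3% of all genes. Within the siRNA groups single arrays leaned one way across the members. Cugbp1 siRNA replicate 1 was the lowest of its group for 8 of the 10 genes and for 53% of all genes, and replicate 3 was the highest for 8 of the 10 and for 39.2% of all. Mbnl1 siRNA replicate 3 was the highest of its group for 7 of the 10 and for 41.5% of all.

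Among the classical members, Srsf1 binds exonic enhancers and promotes the use of nearby 5′ splice sites. It stood at 10.49 on each control array, at 10.31, 10.48 and 10.51 after Cugbp1 siRNA, and at 10.51, 10.62 and 10.56 after Mbnl1 siRNA. The Cugbp1 siRNA arrays overlapped the controls and spread more than they did (SD 0.11 against 0.002), and the change was -0.06 ± 0.06 (SE; adjusted p = 0.423, limma). The Mbnl1 siRNA arrays lay just above the controls, at 0.07 ± 0.06 (adjusted p = 0.348).

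Srsf2, a nuclear speckle protein that acts on exonic enhancers, was at 10.45, 10.35 and 10.44 in the controls. It was at 10.64, 10.63 and 10.64 after Cugbp1 siRNA and at 10.55, 10.60 and 10.68 after Mbnl1 siRNA. No siRNA array overlapped the controls. The changes were 0.23 ± 0.05 (adjusted p = 0.00539, limma) and 0.20 ± 0.05 (adjusted p = 0.00796). RefSeq places the gene across part of Mfsd11, and whether any of its probe sets also reads that gene was not analysed here.

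Srsf3 and Srsf7 both link splicing to mRNA export, and Srsf7 also carries a zinc knuckle. Srsf3 was at 11.42, 11.37 and 11.45 in the controls, at 11.37, 11.61 and 11.65 after Cugbp1 siRNA and at 11.63, 11.55 and 11.63 after Mbnl1 siRNA. Cugbp1 siRNA replicate 1 lay inside the control range while the other 2 arrays of its group lay above it, and the change was 0.13 ± 0.07 (adjusted p = 0.156, limma). After Mbnl1 siRNA the change was 0.19 ± 0.07, with an adjusted p of 0.0506 just short of the threshold (limma). A processed copy, Srsf3-ps, is annotated in RefSeq, so the Srsf3 values are uncertain where a probe set matches both. Srsf7 was at 9.60 to 9.68 in the controls, 9.66 to 9.75 after Cugbp1 siRNA and 9.69 to 9.79 after Mbnl1 siRNA, and its changes of 0.06 and 0.08 had adjusted p of 0.359 and 0.208 (limma).

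Srsf4, Srsf5 and Srsf6 are close relatives, each with a pair of RNA recognition motifs. Srsf5 was at 8.74, 8.76 and 8.80 in the controls, at 8.93, 9.02 and 9.07 after Cugbp1 siRNA, and at 8.93, 8.95 and 9.04 after Mbnl1 siRNA. The controls lay below all 6 siRNA arrays, by 0.24 ± 0.05 (adjusted p = 0.00547, limma) and 0.21 ± 0.05 (adjusted p = 0.00897). Its rise after Cugbp1 siRNA was the only call of an SR gene that passed under all 19 alternative settings tried, while its rise after Mbnl1 siRNA was lost without Mbnl1 siRNA replicate 3 and under both scalings over the kept probe sets. Srsf6 was at 10.07, 10.06 and 10.15 in the controls, at 10.19, 10.22 and 10.26 after Cugbp1 siRNA and at 10.20, 10.18 and 10.29 after Mbnl1 siRNA. No siRNA array overlapped the controls, but the changes of 0.13 ± 0.05 and 0.13 ± 0.05 had adjusted p of 0.0491 and 0.0461 (limma), and these calls passed in only 5 and 7 of the 19 settings. Srsf4 was at 9.35, 9.30 and 9.38 in the controls, 9.40, 9.46 and 9.55 after Cugbp1 siRNA, and 9.46, 9.44 and 9.48 after Mbnl1 siRNA. Its siRNA arrays did not overlap the controls either, and its changes of 0.12 and 0.11 had adjusted p of 0.0660 and 0.0852 (limma).

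Srsf9 is a relative of Srsf1 with a short arginine-serine tail. It was at 10.34, 10.30 and 10.27 in the controls, at 10.52, 10.46 and 10.50 after Cugbp1 siRNA, and at 10.34, 10.41 and 10.41 after Mbnl1 siRNA. Only the Cugbp1 siRNA arrays lay clear of the controls, at 0.19 ± 0.04 (adjusted p = 0.00674, limma), and the Mbnl1 siRNA change was 0.09 ± 0.04 (adjusted p = 0.128). RefSeq places Srsf9 across part of Gatc, with the same limit as for Srsf2.

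Srsf10 activates splicing when phosphorylated and becomes a repressor when dephosphorylated, as after heat shock. It was at 8.41, 8.31 and 8.40 in the controls, at 8.48, 8.63 and 8.73 after Cugbp1 siRNA and at 8.55, 8.61 and 8.60 after Mbnl1 siRNA. All 6 siRNA arrays lay above the controls, by 0.24 ± 0.06 (adjusted p = 0.0150, limma) and 0.21 ± 0.06 (adjusted p = 0.0224). Without Cugbp1 siRNA replicate 2 or 3 the former call was lost, and without control replicate 2 or Mbnl1 siRNA replicate 3 the latter was. Srsf11, which acts as an SR-type regulator of 3′ splice sites and exon choice, was at 9.14, 9.26 and 9.11 in the controls, at 9.32, 9.32 and 9.51 after Cugbp1 siRNA and at 9.29, 9.27 and 9.38 after Mbnl1 siRNA. Its changes were 0.21 ± 0.06 (adjusted p = 0.0264, limma) and 0.14 ± 0.06 (adjusted p = 0.0993), and the former was lost without Cugbp1 siRNA replicate 3.

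**Figure D2:**
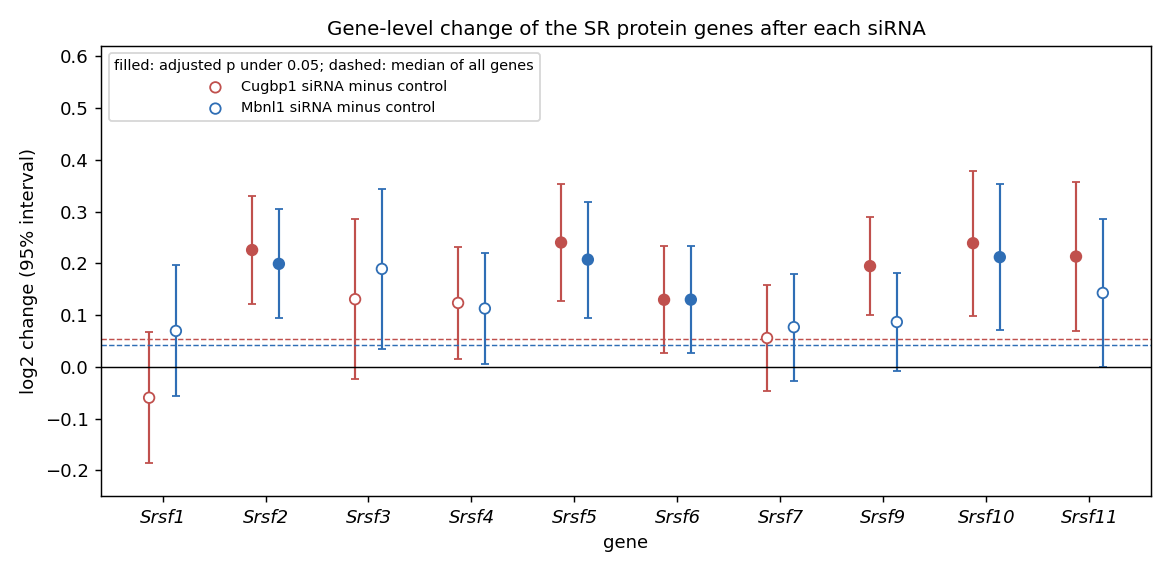
Log2 change of each SR protein gene (y axis, points, with 95% intervals as bars) after Cugbp1 siRNA (red) and Mbnl1 siRNA (blue) against the shared controls; filled points have an adjusted p under 0.05 (limma), and dashed lines are the medians of all genes, 0.05 and 0.04. Srsf1 after Cugbp1 siRNA, at -0.06, is the only point below 0.

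Set against each other, the siRNA groups gave no call at the gene level for any of the 10 genes, while 9.34% of all genes passed (limma). At an unadjusted p under 0.05 there were 2, against 23.5% of all genes: Srsf1 at -0.13 (Cugbp1 minus Mbnl1 siRNA; 95% interval -0.26 to -0.00, adjusted p = 0.203) and Srsf9 at 0.11 (0.01 to 0.20, adjusted p = 0.158). For the other 8 genes the interval included 0. The 10 intervals together ran from -0.26 to 0.21, so differences of that size between the knockdowns were not resolved here. With only the brightest probe sets, from the 85th percentile up, Srsf9 passed at 0.14 (adjusted p = 0.0364, limma).

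Changes of this size depended on how the arrays were scaled. The deposited arrays gave 6 and 4 rising members. Repeating quantile normalisation over all probe sets gave 5 and 3, where 2600 and 2795 of 12651 genes rose. Centring each array on the median of all probe sets gave 7 and 8, where 4398 and 4232 of 12646 genes rose. With quantile normalisation over the kept probe sets 4 and 2 rose, beside 1650 and 2004 of the 12646 genes. Centring each array on the median of the kept probe sets left 1 rising gene after Cugbp1 siRNA, Srsf5 at 0.12 (adjusted p = 0.0453, limma), turned Srsf1 into a lower call at -0.15 (adjusted p = 0.0217), and left 0 calls after Mbnl1 siRNA. That scaling moved the median of all genes from 0.05 to -0.04 and from 0.04 to -0.06, and it turned the split of all calls from 3293 higher and 1600 lower to 1366 and 3206, and from 3397 and 1848 to 1716 and 3918. The medians of the members were then 0.06 and 0.03, still above those of all genes. The changes of the members are therefore given relative to the deposited scale. On that scale the 4 of 10 that rose after Mbnl1 siRNA were not far from the 26.9% of all genes.

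**Figure D3:**
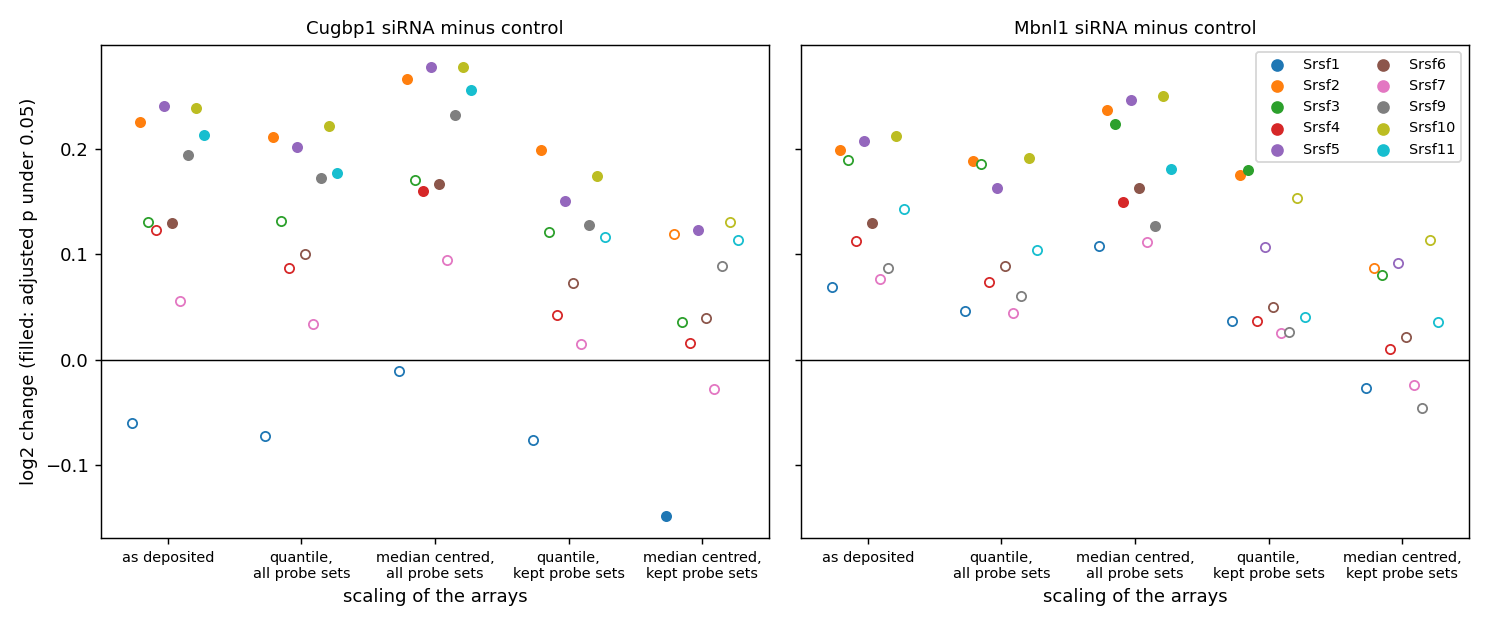
Log2 change of each SR protein gene (y axis, 1 colour a gene) under 5 scalings of the arrays (x axis) after Cugbp1 siRNA (left) and Mbnl1 siRNA (right); filled points have an adjusted p under 0.05 (limma). From the deposited scale to centring on the kept probe sets the number of filled points goes from 6 to 2 and from 4 to 0.

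Use of single probe sets was measured as the log2 value of the probe set minus the value of its gene on the same array. This difference is not moved by centring. All 166 kept probe sets could be tested. After Cugbp1 siRNA 10 of them passed (4 higher, 6 lower; limma with a trend, Benjamini-Hochberg over 158713 probe sets), and 3.75% of all probe sets did. After Mbnl1 siRNA 19 passed (12 higher, 7 lower) against 6.98% of all. At an unadjusted p under 0.05 the shares were 21.1% and 29.5% of the member probe sets, against 20.8% and 24.7% of all. The 21 probe sets that passed in at least 1 comparison lay in 8 genes, and Srsf1 and Srsf9 had none. The shares of all probe sets and of all genes with such a call were not computed. Whether 8 genes is unusual is therefore not shown. Which exon or intron a probe set covers, and so whether any lies in a poison exon, is not analysed here, since no table used gives positions of the probe sets.

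**Figure D4:**
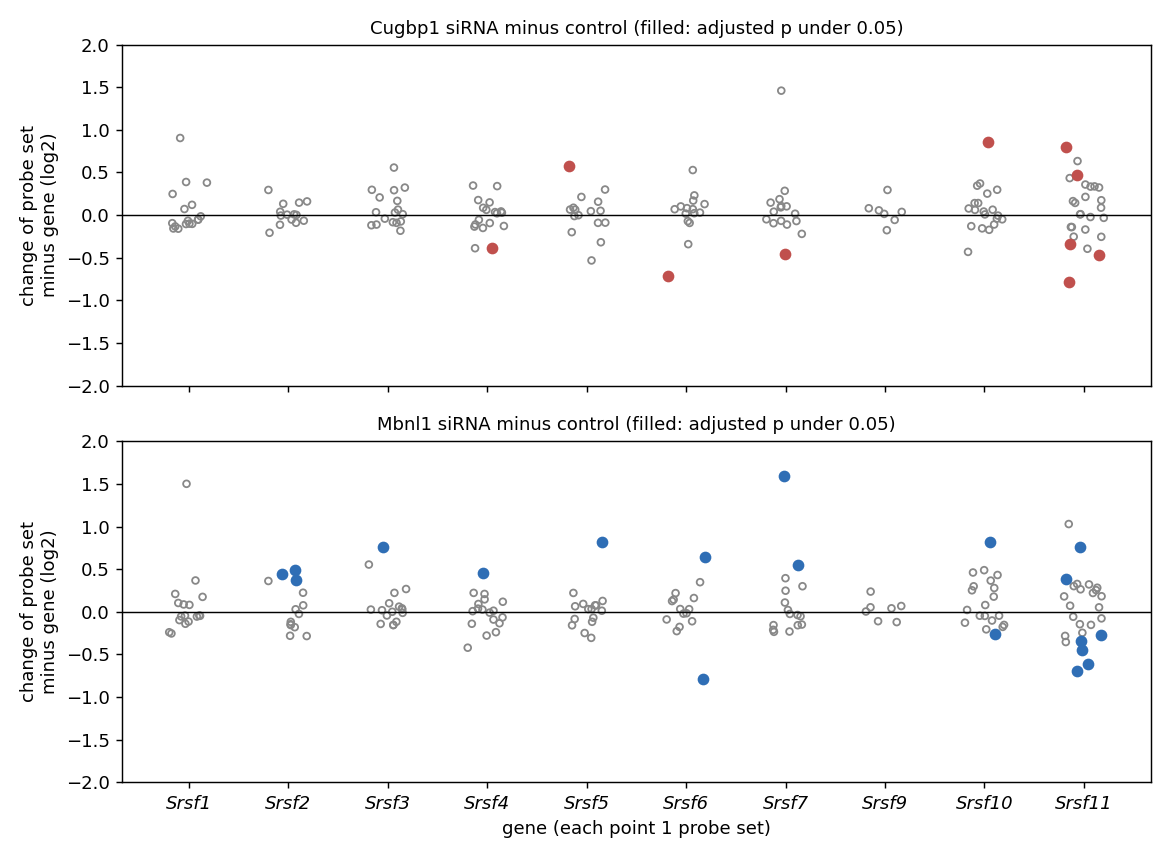
Change of probe set minus gene (log2, y axis) for each of the 166 kept probe sets, by gene (x axis), after Cugbp1 siRNA (top) and Mbnl1 siRNA (bottom); filled points have an adjusted p under 0.05 (limma). Filled points stand on both sides of 0, and Srsf11 has 5 in the top panel and 7 in the bottom one.

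Srsf11 held the most, with 5 of 26 passing after Cugbp1 siRNA and 7 of 26 after Mbnl1 siRNA, some higher and some lower. Probe set 5422638 stood at -1.58, -1.37 and -1.43 relative to its gene in the controls, at -0.45, -0.93 and -0.61 after Cugbp1 siRNA and at -0.70, -0.73 and -0.69 after Mbnl1 siRNA. It rose by 0.80 ± 0.13 (adjusted p = 0.0113, limma) and 0.76 ± 0.13 (adjusted p = 0.00918) with no overlap with the controls. Its own log2 level went from 7.56, 7.89 and 7.68 to 8.87, 8.39 and 8.90 and to 8.59, 8.54 and 8.70, so it rose in signal as well as in its share of the gene. These calls passed in 17 and 18 of 19 alternative settings. Probe set 4922985 moved the other way, from 0.50, 0.72 and 0.54 in the controls to 0.16, -0.19 and -0.57 and to 0.13, -0.22 and -0.24. Its changes were -0.79 ± 0.17 (adjusted p = 0.0282, limma) and -0.69 ± 0.17 (adjusted p = 0.0314), and these calls passed in 14 and 14 of the 19.

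The other Srsf11 calls were smaller. Probe set 4643422 stood at 1.53, 1.49 and 1.56 in the controls and at 1.07 to 1.25 on all 6 siRNA arrays, a change of -0.34 in each comparison (adjusted p = 0.0208 and 0.0130, limma). Probe set 4469518 changed by 0.47 and 0.39 and probe set 5189402 by -0.47 and -0.45 (adjusted p from 0.0294 to 0.0428). Probe sets 5434717 and 4902911 passed after Mbnl1 siRNA, at -0.62 and -0.27 (adjusted p = 0.0169 and 0.0400, limma), and stood at -0.39 and -0.25 after Cugbp1 siRNA (adjusted p = 0.104 and 0.0650). Of 19 alternative settings, the calls of 4643422 passed in 15 and 16, those of 4469518 in 9 and 10, those of 5189402 in 12 and 12, that of 5434717 in 16 and that of 4902911 in 5. The largest Srsf11 difference after Mbnl1 siRNA, 1.03 ± 0.30 in probe set 4651423, did not pass (adjusted p = 0.0598); its control arrays ran from -2.84 to -1.66.

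In Srsf5, probe set 5132481 stood at 0.07, -0.06 and 0.47 in the controls, at 0.79, 0.73 and 0.67 after Cugbp1 siRNA and at 0.74, 1.00 and 1.19 after Mbnl1 siRNA. All siRNA arrays lay above the controls, by 0.57 ± 0.14 (adjusted p = 0.0452, limma) and 0.82 ± 0.14 (adjusted p = 0.00773). In Srsf6, probe set 5135482 stood at 1.42, 1.76 and 1.32 in the controls, at 0.63, 1.01 and 0.71 after Cugbp1 siRNA and at 0.97, 0.70 and 0.47 after Mbnl1 siRNA. It fell by 0.71 ± 0.15 (adjusted p = 0.0257, limma) and by 0.79 ± 0.15 (adjusted p = 0.0117), while the Srsf6 gene value was slightly higher. The Srsf5 calls passed in 9 and 18 of the 19 alternative settings and the Srsf6 calls in 16 and 18. Another Srsf6 probe set, 5520405, passed after Mbnl1 siRNA at 0.65 (adjusted p = 0.0316, limma) and stood at 0.53 after Cugbp1 siRNA (adjusted p = 0.0840); its call passed in 12 of 18.

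A Srsf7 probe set was dim in the controls. The log2 level of probe set 4806947 was 6.33, 4.93 and 6.61 in the controls, 7.73, 7.22 and 7.47 after Cugbp1 siRNA and 7.98, 7.20 and 7.71 after Mbnl1 siRNA. The fit gave differences relative to the gene of 1.60 ± 0.37 after Mbnl1 siRNA (adjusted p = 0.0292, limma) and 1.46 ± 0.37 after Cugbp1 siRNA (adjusted p = 0.0555). Its mean in the controls, 5.96, lay below the limit of 7.00, so it entered only because the siRNA arrays were brighter, and these values are a description that supports no call. 6 of the 166 probe sets were of this kind, and 2 of them are among those that passed; without these 2 the counts were 9 and 17. The other was 5331772 of Srsf10, which stood at -1.73, -2.21 and -1.74 relative to its gene in the controls, at -0.93, -1.15 and -1.03 after Cugbp1 siRNA and at -0.75, -1.49 and -0.99 after Mbnl1 siRNA. Its fitted differences, given with the same limit, were 0.86 ± 0.19 (adjusted p = 0.0358, limma) and 0.82 ± 0.19 (adjusted p = 0.0302).

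**Figure D5:**
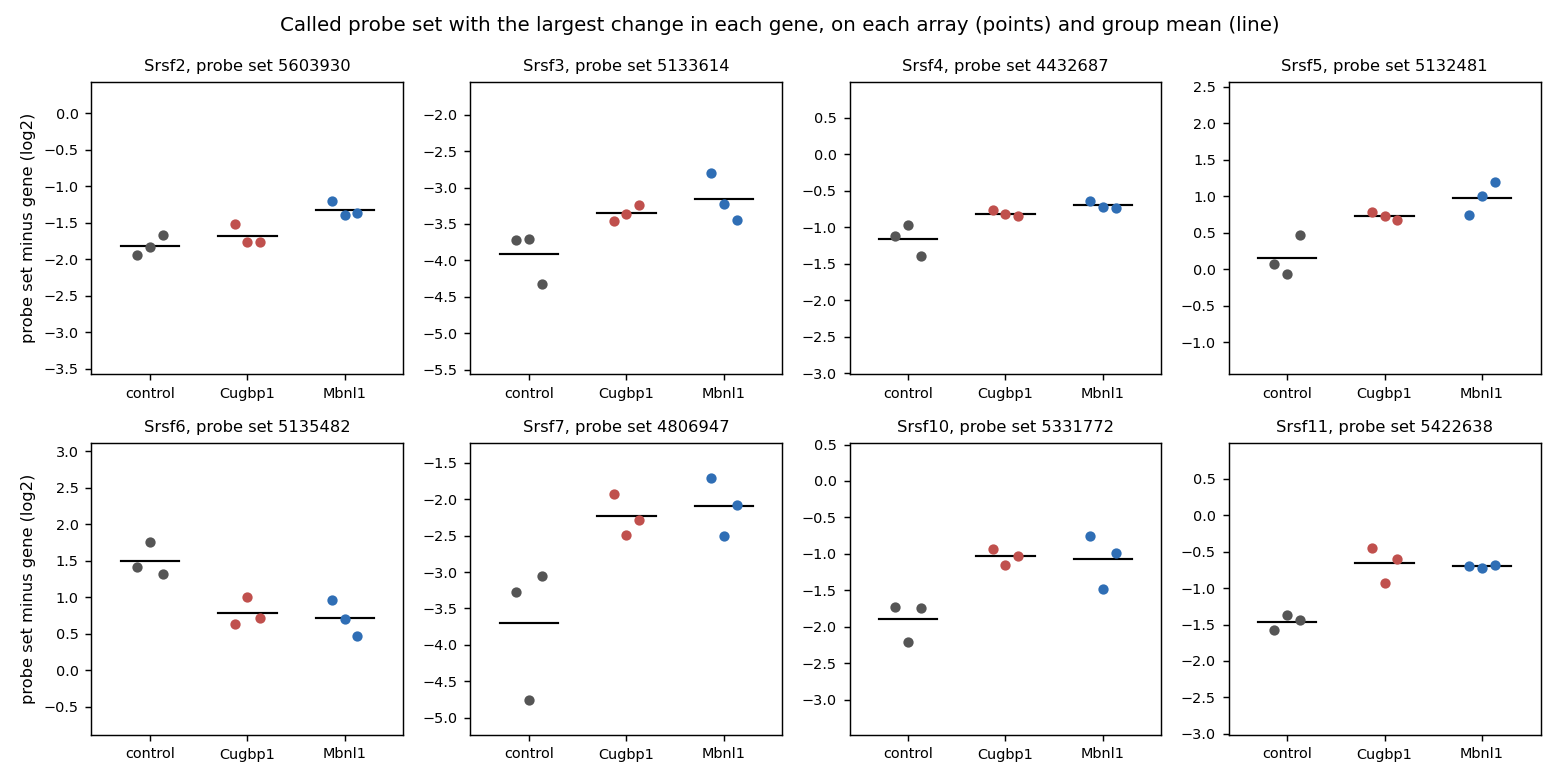
Probe set minus gene (log2, y axis) on each array by siRNA group (x axis) for the probe set with the largest change among those that passed in each of 8 SR protein genes; points are arrays, lines are group means, and every panel spans the same range. The Srsf6 probe set is lower on all 6 siRNA arrays, and those of Srsf5 and Srsf11 are higher; the Srsf7 and Srsf10 probe sets had control means below the limit of 7.00 and were kept through the siRNA arrays.

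Srsf7 had 2 more. Probe set 4577391 passed after Cugbp1 siRNA, from 0.57, 0.37 and 0.46 to 0.21, -0.23 and 0.04 (-0.46 ± 0.11; adjusted p = 0.0443, limma), and stood at -0.23 after Mbnl1 siRNA (adjusted p = 0.220). Probe set 4702343 passed after Mbnl1 siRNA, at 0.55 (adjusted p = 0.0386, limma), and stood at 0.28 after Cugbp1 siRNA. In Srsf4, probe set 4966415 went from 2.20, 2.18 and 2.16 to 1.90, 1.70 and 1.79 after Cugbp1 siRNA (-0.38 ± 0.08; adjusted p = 0.0295, limma) and stood at -0.24 after Mbnl1 siRNA (adjusted p = 0.10). Over 19 alternative settings the call of 4577391 passed in 8, that of 4702343 in 9 and that of 4966415 in 10. Probe set 4432687 of Srsf4 passed after Mbnl1 siRNA, at 0.46 (adjusted p = 0.0453; 7 of the 19), and probe set 4969789, which did not pass, had the largest Srsf4 difference after Cugbp1 siRNA, -0.39 (adjusted p = 0.174).

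Srsf2 and Srsf3 had calls after Mbnl1 siRNA and none after Cugbp1 siRNA, a difference that did not pass when tested. The 3 probe sets of Srsf2 were 5603930 at 0.49, 5121824 at 0.45 and 5433207 at 0.37 (adjusted p from 0.0358 to 0.0460, limma), and they stood at 0.13 to 0.16 after Cugbp1 siRNA. These calls passed in only 5, 5 and 9 of 19 alternative settings. Probe set 5433207 was at -0.68, -0.63 and -0.64 in the controls, -0.46, -0.62 and -0.43 after Cugbp1 siRNA and -0.27, -0.28 and -0.28 after Mbnl1 siRNA, so the Mbnl1 siRNA arrays stood above all others. The largest Srsf2 difference after Cugbp1 siRNA was 0.30 in probe set 5035227 (adjusted p = 0.153). In Srsf3, probe set 5133614 changed by 0.76 ± 0.20 after Mbnl1 siRNA (adjusted p = 0.0441, limma) and stood at 0.56 ± 0.20 after Cugbp1 siRNA (adjusted p = 0.143), and its call passed in 7 of the 19 settings. In Srsf10, probe set 5236266 went from 3.81, 3.93 and 3.91 to 3.64, 3.62 and 3.60 after Mbnl1 siRNA (-0.26 ± 0.06; adjusted p = 0.0309, limma), a call that passed in 10 of the 19.

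Srsf1 and Srsf9 had no call. The largest Srsf1 difference, in probe set 5603818, was 1.501 ± 0.50 after Mbnl1 siRNA (adjusted p = 0.0922, limma) and 0.90 ± 0.50 after Cugbp1 siRNA (adjusted p = 0.327). It came from a probe set whose control arrays ran from -5.43 to -2.97, with a mean level below the limit. The largest Srsf9 difference was 0.30 in probe set 5340122 (adjusted p = 0.266). Between the siRNA groups no member probe set passed, against 0.0277% of all probe sets, and 4.22% of the member probe sets had an unadjusted p under 0.05, against 6.63% of all (smallest adjusted p = 0.689, limma). The largest difference between them was 0.60.

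After Cugbp1 siRNA 2 of the 4 member probe sets that rose lay below the gene value in the controls and all 6 that fell lay above it. Over all probe sets called in that comparison, 78.0% of those that rose lay below and 83.6% of those that fell lay above. After Mbnl1 siRNA 10 of the 12 that rose lay below and all 7 that fell lay above, against 79.2% and 81.2% of all called. The part of the starting position in the calls was not tested. The usage calls also leaned on the filter on weak probe sets. With no filter 0 passed after Cugbp1 siRNA, and 1 passed after Mbnl1 siRNA, probe set 5200383 of Srsf11 at 0.97 (adjusted p = 0.0420, limma; mean level 6.32, below the limit used here). Without Cugbp1 siRNA replicate 3 none of the Cugbp1 siRNA calls passed, and without Mbnl1 siRNA replicate 3 the Mbnl1 siRNA count was 3. Counts over all probe sets under these settings are not given here, so the losses are not read as particular to the members.

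Genes that act on or with SR proteins were taken from lists, and their counts use the gene-level test. SR proteins are phosphorylated on their tail by Srpk and Clk kinases and carried into the nucleus by Tnpo3. Of 10 such genes 6 rose and 0 fell after Cugbp1 siRNA, and 4 rose and 1 fell after Mbnl1 siRNA. Of all genes 26% rose and 12.7% fell after Cugbp1 siRNA, and 26.9% and 14.6% after Mbnl1 siRNA. The list counts after Mbnl1 siRNA were not far from those shares. Clk4 led both, from 8.66, 8.64 and 8.67 in the controls to 9.09, 9.09 and 9.26 and to 9.01, 9.01 and 9.02, with changes of 0.49 ± 0.05 (adjusted p = 0.000206, limma) and 0.36 ± 0.05 (adjusted p = 0.000562). Clk1 rose by 0.23 and 0.32 and Srpk2 by 0.27 and 0.23 (adjusted p from 0.000355 to 0.00532). Prpf4b, a kinase of the spliceosome, rose by 0.16 and 0.19 (adjusted p = 0.0341 and 0.0133), and Clk2 by 0.28 after Cugbp1 siRNA (adjusted p = 0.0138), with 0.17 after Mbnl1 siRNA (adjusted p = 0.0853). Of these calls those of Clk4 and Clk1 passed in all 19 alternative settings in each comparison, that of Clk2 in 10 of 18 and that of Prpf4b after Mbnl1 siRNA in 15 of 19. Tnpo3 fell by 0.18 after Mbnl1 siRNA (adjusted p = 0.00963) and stood at 0.06 after Cugbp1 siRNA (adjusted p = 0.281), and the difference between the siRNA groups was 0.25 ± 0.05 (adjusted p = 0.00825).

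Of 20 listed genes for proteins related to these SR proteins, all but Srsf12 could be tested. Of these 19, 13 rose and 0 fell in each comparison, with median changes of 0.18 and 0.16. For all genes tested the shares that rose were 26% and 26.9%, and the medians were 0.05 and 0.04. Pnisr led after Cugbp1 siRNA, from 8.10, 8.04 and 8.13 to 8.54, 8.46 and 8.54 (0.42 ± 0.04; adjusted p = 0.000224, limma), and changed by 0.35 after Mbnl1 siRNA. Luc7l2 rose by 0.39 and 0.40, Srek1 by 0.32 and 0.39 and Luc7l3 by 0.31 and 0.28 (adjusted p from 0.000315 to 0.00478); Luc7l2 and Luc7l3 are relatives of a yeast U1 particle protein. All 4 passed in every one of the 19 alternative settings in each comparison. With the arrays centred on the kept probe sets the counts for the whole list became 6 higher and 2 lower, and 6 higher and 1 lower. Under that scaling 1366 of 12646 genes were higher and 3206 lower after Cugbp1 siRNA, and 1716 and 3918 after Mbnl1 siRNA.

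Among 10 splicing and export partners, 3 rose after Cugbp1 siRNA and 0 after Mbnl1 siRNA, where 1 had an unadjusted p under 0.05. Over all genes 26% and 26.9% rose, so the count of 3 is near that of any genes. They were U2af1, which reads the 3′ splice site, at 0.24, the export receptor Nxf1 at 0.18 and the export helicase Ddx39b at 0.15 (adjusted p from 0.00407 to 0.0346, limma), with calls that passed in 19, 16 and 12 of 19 settings. Of 15 genes for nonsense-mediated decay and the exon junction complex, 10 could be tested; 3 rose after Cugbp1 siRNA, 4 after Mbnl1 siRNA, and 0 fell, again not far from the shares of all genes. Upf2 rose by 0.26 and 0.17 and Smg6, an endonuclease of the pathway, by 0.19 and 0.31. Casc3 rose by 0.15 after Cugbp1 siRNA, and Smg1 and Smg8 by 0.22 and 0.19 after Mbnl1 siRNA (adjusted p from 0.00142 to 0.0469 over these calls, limma). After Mbnl1 siRNA the calls of Upf2 and Smg8 passed in only 9 and 7 of 19 settings, that of Smg1 in 15 and that of Smg6 in 19; after Cugbp1 siRNA those of Upf2, Casc3 and Smg6 passed in 19, 15 and 14.

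Of 16 listed markers of other cell types 10 could be tested. After Cugbp1 siRNA 6 fell, and after Mbnl1 siRNA 4 fell and 1, Tubb3, rose, while 12.7% and 14.6% of all genes fell. The others did not pass, such as Gfap at 0.01 and -0.07. Their mean level was 8.06 to 8.07 on the control arrays, 7.81 to 7.86 after Cugbp1 siRNA and 7.86 to 7.91 after Mbnl1 siRNA, with median changes of -0.24 and -0.20. The most changed were Csf1r at -0.35 and -0.35, Krt5 at -0.34 and -0.35, Itgam at -0.33 and -0.24, Cd3e at -0.29 after Cugbp1 siRNA and Pecam1 at -0.42 after Mbnl1 siRNA (adjusted p from 0.00235 to 0.0456, limma). An array gives no level of 0, and their part in the values of the SR genes was not tested. All arrays came from the same myoblast line, and whether any other cell type was present was not tested. The falls are therefore not read as a loss of cells, which bulk RNA could not tell from less RNA per cell. Mean levels of these markers on the control arrays ran from 7.32 (Syp) to 9.02 (Tubb3), so the lower ones lay near the limit of the filter. Of the 10 myoblast genes 3 rose after Cugbp1 siRNA, near the 26% of all genes. They were Cdh15 at 0.32, Myod1 at 0.30 and Musk at 0.22 (adjusted p from 0.00602 to 0.0142, limma). The others did not pass, such as Msc at -0.20 and Myf5 at -0.09, and 6 of the 10 changes were above 0. After Mbnl1 siRNA Musk rose by 0.44 and Myf5 fell by 0.28 (adjusted p = 0.000177 and 0.0147, limma). With the arrays centred on the kept probe sets 1 rose and 2 fell after Cugbp1 siRNA, and 1 rose and 3 fell after Mbnl1 siRNA.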

How the data were processed

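The members and gene lists were chosen with earlier results of these data known. The authors deposited 1 table of linear intensity values for 1195555 probe sets and 9 arrays. They were made with RMA in Affymetrix Expression Console on build mm9, per the submitters' processing notes, and no version is stated in what was used. Per the labels' protocols, 100 ng of total RNA was labelled per array. Arrays have no read depth, and their number limits precision.

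Values were log2-transformed. Probe sets with 1 symbol and a mean at or above the 75th percentile were kept; genes needed 3 of these, or 4 for usage. Of 22264 symbols 17988 were current, 4214 were updated through RefSeq and 62 were kept as given. Sfrs10, which is a synonym of more than 1 gene, was read as Tra2b. Gene values came from Tukey median polish. All 9 arrays were fitted together in R 4.3.3 with limma 3.58.1 (eBayes; with a trend for usage), and p-values were adjusted by Benjamini-Hochberg at 0.05. Data were simulated from the means and spreads of all 9 arrays, with changes set in the Cugbp1 siRNA group. In its comparison with control over 12646 genes, 29.9% of 67 genes changed 1.2-fold and 100% of 67 changed 1.5-fold were found. Of 161 calls 8 were false. Over 158713 probe sets, 32.8% of 67 changed 1.5-fold and 95.5% of 67 changed 2-fold were found. Few genes were changed there, while the real comparison gave 3293 higher and 1600 lower calls, so these shares do not carry over to it. Named probe sets were every member probe set that passed, and for each gene the one with the largest difference in each comparison with control. From each list up to 4 called genes with the largest change were named. Alternatives were the scaling, the filter, the summary, the test, the arrays in the fit, a replicate block and leaving out each array. The comparison of protein sequences that had been planned was not run.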

Additional observations from a re-analysis of the deposited data

Results flagged for a closer look

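None of the 10 SR genes differed between the siRNA groups at an adjusted p under 0.05. Among the other genes named, 7 did by a test of the difference itself (Cugbp1 minus Mbnl1 siRNA, log2, limma with Benjamini-Hochberg adjustment). List genes that passed this test were named for it, so 7 is not a rate, and 9.34% of all genes passed. The targets differed most, Celf1 at -1.39 (adjusted p = 1.33e-06) and Mbnl1 at 1.39 (adjusted p = 2.81e-07). Tnpo3, the import receptor of SR proteins, stood at 0.25 (adjusted p = 0.00825). The myoblast genes Cdh15 and Musk stood at 0.30 and -0.22 (adjusted p = 0.0213 and 0.0226). The markers of other cell types Krt14 and Tubb3 stood at -0.25 and -0.26 (adjusted p = 0.0277 and 0.0333). Over 19 alternative settings the Tnpo3 difference passed in 19, that of Cdh15 in 14, Krt14 in 13, Musk in 11 and Tubb3 in only 5. Groups of 3 arrays were not examined for single distant arrays.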

How the results depend on the processing

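Counts of SR genes that passed (6 after Cugbp1 siRNA, 4 after Mbnl1 siRNA, 0 between them) moved by over 1.5 times in these settings, and the cause was not tested. After Mbnl1 siRNA 8 passed with arrays centred on the median and 8 with a mean of probe sets. With 2 scalings chosen after seeing the data, the counts were 2 and 0 with arrays centred on the kept probe sets, and 2 after Mbnl1 siRNA with quantile normalisation over the kept probe sets. Calls over all genes moved with the scaling too, as given above. With a stricter filter 1 gene, Srsf9, passed between the siRNA groups. Leaving out 1 array gave 3 to 8 genes, 1 to 6 and 0 to 0; the lowest came without Cugbp1 siRNA replicate 3 and without Mbnl1 siRNA replicate 3. Probe set counts (10, 19 and 0) became 0 and 1 with no filter on weak probe sets, 16 after Cugbp1 siRNA both with the mean of the other probe sets and with diffSplice, 4 and 10 with only the 6 arrays compared, and 12 after Mbnl1 siRNA with quantile normalisation over the kept probe sets. Leaving out 1 array gave 0 to 8 probe sets, 3 to 16 and 0 to 0. The Cugbp1 siRNA count was 0 without Cugbp1 siRNA replicate 3, 3 without Cugbp1 siRNA replicate 2 and 5 without control replicate 2 or 3. The Mbnl1 siRNA count was 3, 6 and 7 without Mbnl1 siRNA replicate 3, 2 and 1, 6 and 11 without control replicate 3 and 2, and 12 without Cugbp1 siRNA replicate 2 or 3. Apart from the gene-level calls under the scalings, counts over all genes and probe sets are not given for these settings. The moves are therefore not read as particular to the members. Over the pathway lists 15 genes passed after Cugbp1 siRNA with arrays centred on the kept probe sets and 2 between the siRNA groups with the mean of probe sets, and leaving out 1 array gave 18 to 28, 14 to 28 and 1 to 1 (14 without Mbnl1 siRNA replicate 3). Values that changed sign, 27 of 570 for member genes and 32 of 1449 for probe sets, passed in neither setting.

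Same-numbered arrays deviated from their group means with correlations from -0.10 to 0.12, and 1 of 9 was over 0.1. That was replicate 3 of the Cugbp1 and Mbnl1 siRNA groups. Arrays with other numbers had correlations from -0.13 to 0.09, with 0 of 18 over 0.1. The labels do not say whether replicate numbers pair the samples, and correlations this weak cannot settle it. With the replicate block 6, 4 and 0 SR genes, 9, 14 and 0 probe sets and 24, 18 and 1 list genes passed.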
